A study of Mus musculus with 8 samples.

Results

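The imprinted growth genes described here are 10 mouse genes that are read mainly from 1 parental copy and act on the growth of the embryo, namely H19, Igf2, Igf2r, Dlk1, Meg3, Peg3, Grb10, Plagl1, Mest and Ndn. Their rows were found by symbol, and each symbol had 1 row among the 50600 genes listed, so that 10 of 10 were found. RNA sequencing was done on C57BL/6 mouse embryonic fibroblasts that had all been transduced with the GHMT retroviruses. GHMT stands for Gata4, Hand2, Mef2c and Tbx5, transcription factors that drive fibroblasts towards heart muscle cells, a method called direct cardiac reprogramming. For 7 days the cells received 1% DMSO, 5 µM I-CBP112 (a ligand of the bromodomains of CBP and p300), 5 µM C646 (an inhibitor of the acetyltransferase activity of the same pair) or 0.1% ethanol. Each treatment had 2 libraries, 8 in all. No group without the factors and no untreated group is analysed here, and the sources used here do not name the inhibitors' solvents, so that the effect of an inhibitor and that of its solvent cannot be told apart. What was analysed are the authors' deposited tables of DMSO, I-CBP112 and C646, each against 1 reference group that the tables do not name and that is read here as ethanol. They hold no values of single libraries, so a level below is the mean normalised count of a group, rebuilt from the deposited mean over all libraries and the fold changes, and its error is that of the fold change. Nothing in the labels says that the 2 libraries of a group came from separate cultures, so the p-values measure the spread between these libraries, which may be technical. The labels number the libraries 2 and 3 in every group without saying whether equal numbers mark a shared preparation, and the p-values take no account of it.

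Imprinted genes keep a mark from the egg or the sperm that silences 1 copy, and many of them raise or restrain the growth of the embryo. H19 and Igf2 are neighbours: the factor CTCF binds between them on the maternal chromosome and keeps shared enhancers from Igf2, so that the maternal copy makes the long noncoding RNA H19 and the paternal copy makes Igf2, a growth factor of fetal tissues. In the mouse the maternal copy of Igf2r makes a receptor that carries IGF2 to lysosomes, and the maternal copy of Grb10 makes an adaptor that damps signals of the insulin and IGF1 receptors. Dlk1, a membrane protein that holds back fat cell formation, and Meg3, a long noncoding RNA, form another pair of neighbours read from opposite parental copies. Plagl1 and Peg3 encode zinc finger proteins, Mest an enzyme of the hydrolase fold, and Ndn a protein of the MAGE family. All cells came from 1 inbred strain and the tables give 1 value per gene, so the 2 parental copies are summed in every value below.

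Igf2, H19 and Mest, which had the largest falls of the 10 with DMSO, each carry a microRNA precursor on the same strand, and the mature sequences are shown because these genes host them. The microRNAs and the transcripts that hold their precursors were not measured separately. They are those of RefSeq on GRCm38.p6, written 5′ to 3′ with the seed, bases 2 to 8, in capitals. The miR-675 sequences lie in an exon of 3 of 7 annotated H19 transcripts, those of miR-483 in an intron of 7 of 9 Igf2 transcripts and those of miR-335 in an intron of 7 of 11 Mest transcripts. Hosting a microRNA is not particular to these genes. Meg3, which was not called in any comparison, holds miR-770 on its strand, in an exon of 1 and an intron of 3 of 11 transcripts.
mmu-miR-675-5p: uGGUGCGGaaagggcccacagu
mmu-miR-675-3p: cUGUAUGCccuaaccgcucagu
mmu-miR-483-5p: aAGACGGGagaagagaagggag
mmu-miR-483-3p: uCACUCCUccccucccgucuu
mmu-miR-335-5p: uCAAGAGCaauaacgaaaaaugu
mmu-miR-335-3p: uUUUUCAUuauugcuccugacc
No seed is shared among the 6. Mature microRNAs were not measured by these libraries: the Mir675 row had a mean normalised count of 0, Mir483 of 1.35 and Mir335 of 13. All are under 26.1, the lowest mean with an adjusted p for DMSO and I-CBP112, called the lowest tested mean below. The C646 comparison was adjusted over more genes, with lower means.

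The start regions of Igf2, Mest and Plagl1, which fell with DMSO and with I-CBP112, are shown beside that of Igf2r, which did not. Each runs from 250 bases before to 50 bases after a RefSeq start on GRCm38.p6, written on the gene's strand, with GGGCGG or its reverse complement CCGCCC, the core of the GC box bound by Sp1-type factors, in capitals. H19, which also fell with both, has no such entry and is not shown. RefSeq has 4 such entries for Igf2, and the 1 with 2 GC boxes was picked after the sequences were seen. The other Igf2 entries hold 2, 14 and 24 CpG pairs, against 7 in the 1 shown. Mest also has other entries, among them chr6:30733256-30733555 with 8 CpG pairs, against 17 in the 1 shown.
Igf2, chr7:142657447-142657746, minus strand: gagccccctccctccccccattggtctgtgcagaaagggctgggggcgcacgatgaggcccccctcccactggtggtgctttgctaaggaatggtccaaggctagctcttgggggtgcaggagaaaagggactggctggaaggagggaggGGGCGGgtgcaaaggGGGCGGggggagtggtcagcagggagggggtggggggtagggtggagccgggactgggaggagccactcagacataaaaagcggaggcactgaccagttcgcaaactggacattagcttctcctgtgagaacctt
Mest, chr6:30737800-30738099, plus strand: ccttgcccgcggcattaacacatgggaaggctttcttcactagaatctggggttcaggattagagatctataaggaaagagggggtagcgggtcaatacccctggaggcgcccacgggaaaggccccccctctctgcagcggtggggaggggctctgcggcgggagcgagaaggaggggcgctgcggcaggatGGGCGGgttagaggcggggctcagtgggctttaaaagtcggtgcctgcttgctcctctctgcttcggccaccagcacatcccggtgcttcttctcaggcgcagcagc
Plagl1, chr10:13090582-13090881, plus strand: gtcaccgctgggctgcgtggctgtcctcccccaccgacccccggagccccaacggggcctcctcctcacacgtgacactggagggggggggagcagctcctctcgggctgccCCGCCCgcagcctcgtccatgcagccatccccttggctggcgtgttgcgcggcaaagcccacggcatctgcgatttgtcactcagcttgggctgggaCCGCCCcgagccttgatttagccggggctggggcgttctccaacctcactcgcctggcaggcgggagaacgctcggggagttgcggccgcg
Igf2r, chr17:12769657-12769956, minus strand: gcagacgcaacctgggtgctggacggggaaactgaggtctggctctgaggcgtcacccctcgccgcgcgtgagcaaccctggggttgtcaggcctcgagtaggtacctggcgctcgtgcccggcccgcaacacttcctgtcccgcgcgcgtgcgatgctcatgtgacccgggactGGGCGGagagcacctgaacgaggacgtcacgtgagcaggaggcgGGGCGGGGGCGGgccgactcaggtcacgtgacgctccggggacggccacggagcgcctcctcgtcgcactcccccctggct
The motif, searched on both strands, occurs 2 times in the Igf2 stretch, 1 time in that of Mest, 2 times in that of Plagl1 and 3 times in that of Igf2r, and 35.7% of 32851 promoters of this length hold it. CpG pairs number 7 in the Igf2 stretch, 17 in that of Mest, 26 in that of Plagl1 and 34 in that of Igf2r, against a median of 7 over those promoters. Of these 4 stretches that of Igf2r had the highest counts, but 1 of the Grb10 entries, a gene that fell with DMSO, had 5 of the motif and 45 CpG pairs. GGGGCCCC, which the mouse Plagl1 protein is known to bind, is searched the same way and neither holds nor is held by the other motif; it is in 1.08% of the promoters and, among the 16 entries of the 9 imprinted growth genes that have one, only in that of Peg3.

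Fibroblast markers were abundant in every group, with a summed mean normalised count over 12 genes (among them Col1a1, Col3a1, Pdgfra and Postn) of 685499 with DMSO, 658717 with I-CBP112, 1064659 with C646 and 1081304 with ethanol. Heart muscle markers (9 genes, among them Myh6, Tnnt2 and Ryr2), which the factors are meant to switch on, summed to 307736 with DMSO, 301407 with I-CBP112, 111350 with C646 and 109954 with ethanol. With DMSO 9 of 12 fibroblast markers fell and 7 of 9 heart muscle markers rose by the authors' deposited table. With I-CBP112 it was 7 of 12 and 9 of 9 by the authors' deposited table, and with C646 0 of either list passed. Over all genes tested, 7.9% fell and 8.07% rose with DMSO, and 5.25% fell and 4.65% rose with I-CBP112. Chondrocyte markers (5 genes) summed to 2302 with DMSO, 1710 with I-CBP112, 4053 with C646 and 4207 with ethanol. Comp alone made up 2093 of the sum with DMSO and 3729 of that with ethanol. Acan and Col2a1 had means of 4.37 and 14.1, under the lowest tested mean, and were not tested with DMSO or I-CBP112. The 3 tested, Comp, Sox9 and Col9a1, all fell with DMSO and with I-CBP112 by the authors' deposited tables. Adipocyte markers summed to 904 with DMSO, 924 with I-CBP112, 1635 with C646 and 1552 with ethanol, and 3 of 5 fell with DMSO and 2 of 5 with I-CBP112 by the authors' deposited tables. Endothelial markers (5 genes) summed to 578 with DMSO, 660 with I-CBP112, 1001 with C646 and 1008 with ethanol. With DMSO and with I-CBP112, 1 of the 2 tested fell. Epithelial markers (6 genes) summed to 40.2 with DMSO, 40.7 with I-CBP112, 116 with C646 and 118 with ethanol. Only Krt14 was tested with DMSO and I-CBP112, at a mean of 28.5 near the lowest tested mean of 26.1, and it fell with both. Macrophage markers summed to 820 to 1067 and neural crest and glial ones to 1428 to 2243 over the 4 groups, and 3 of 5 tested macrophage markers fell with I-CBP112. Of 6 skeletal myoblast markers, Myod1, Myog, Myf5, Pax7 and Myf6 had means under 3. In bulk RNA fewer cells of a type and less RNA per cell cannot be told apart. The falls of the called fibroblast, chondrocyte, adipocyte, endothelial and epithelial markers moved with the falls below, as did the rise of the called heart muscle markers. The part of these marker changes in the falls below was not tested.

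All 10 genes were well above the lowest tested mean. Per kb of the longest annotated transcript, H19 stood highest, at a mean normalised count of 69375 per kb over all libraries, and took 0.417% of all normalised counts. Mest came next at 9777, then Igf2 at 7593, Igf2r at 6681 and Grb10 at 5750 per kb. The lower ones were Plagl1 at 1370, Peg3 at 1328, Dlk1 at 1313, Ndn at 1195 and Meg3 at 461 per kb. With no values of single libraries, whether neighbours in this order differ could not be tested. The order was not the same in each group: per kb, Igf2r stood at 6224 with DMSO, 8199 with I-CBP112, 5906 with C646 and 6397 with ethanol, and Igf2 at 3692 with DMSO, 4407 with I-CBP112, 10972 with C646 and 11301 with ethanol, so that the receptor's RNA was above that of its ligand with DMSO and I-CBP112 and below it with C646 and ethanol. This order rests on dividing by the longest transcript: without it the count of Igf2r over that of Igf2 was 3.17 with DMSO, 3.50 with I-CBP112, 1.01 with C646 and 1.07 with ethanol.

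**Figure D1:**
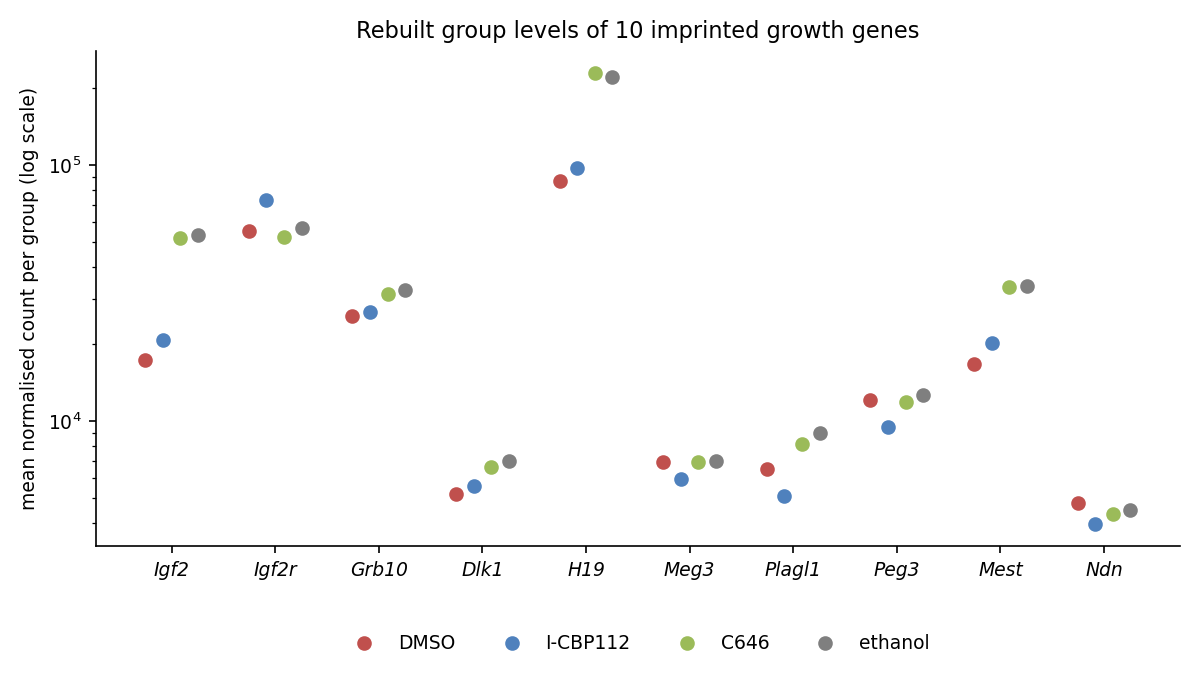
Mean normalised counts (vertical axis, log scale) of the 10 genes in the DMSO, I-CBP112, C646 and ethanol groups, each point 1 group mean rebuilt from the authors' deposited tables, with no error shown because no single-library values are given. The DMSO and I-CBP112 points of Igf2, H19 and Mest lie well below the C646 and ethanol points, while those of Meg3 and Ndn lie close together.

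With DMSO, 6 of the 10 genes fell (Igf2, H19, Mest, Plagl1, Dlk1 and Grb10) and 0 rose. The threshold was an adjusted p below 0.05 as the authors' deposited table gives it, which 16.0% of the 14830 genes tested passed, 7.9% lower and 8.07% higher. By mean normalised count the 10 genes lay from percentile 90.8 (Ndn) to percentile 99.9 (H19) of the genes tested. The shares over all genes given here are not matched for that level. The median log2 fold change was -0.38 over the 10 and 0.03 over all genes tested. With I-CBP112, 5 fell (Igf2, H19, Plagl1, Mest and Peg3) and 0 rose in the authors' deposited table, against 9.9% of genes called, 5.25% lower and 4.65% higher; the medians were -0.36 and 0.01. With C646 the authors' deposited table called 0 of the 10, at an adjusted p of 1 for each, and 0 had an unadjusted p below 0.05; it called 0.00584% of 34250 genes, 0.00292% lower and 0.00292% higher, and the medians were -0.05 and 0.00. The 3 comparisons share their ethanol libraries. If the deposited statistics are read against a t distribution with 4 degrees of freedom, 0 of the 10 pass in any comparison and 1 of the 14830 genes passes with DMSO.

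**Figure D2:**
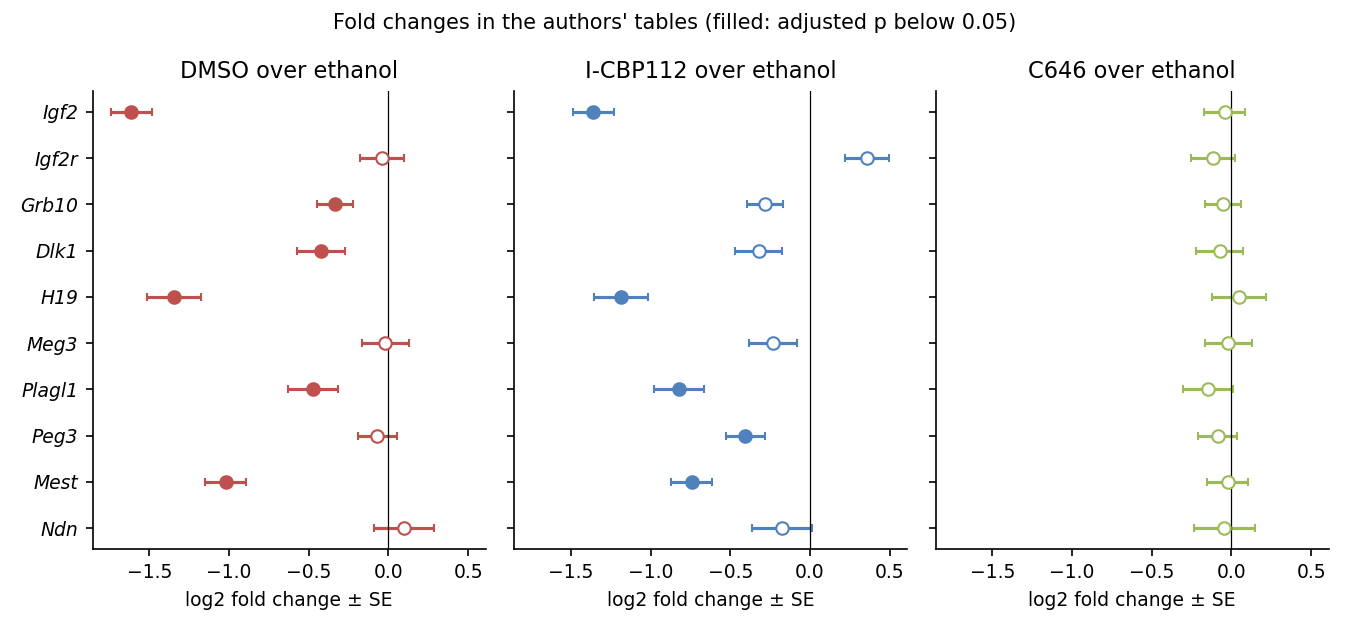
Log2 fold changes over ethanol (horizontal axis) with their standard errors from the authors' deposited tables, for DMSO, I-CBP112 and C646 from left to right; filled points have an adjusted p below 0.05. Igf2, H19, Mest and Plagl1 are filled and left of 0 with DMSO and with I-CBP112, and all C646 points are open and between -0.15 and 0.05.

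Igf2, the growth factor (ENSMUSG00000048583.16, chr7:142650766-142666816, minus strand of GRCm38 in GENCODE M21), had group means of 17433 under DMSO, 20809 under I-CBP112 and 51809 under C646, against 53364 with ethanol. The first 2 groups were low, and C646 was near ethanol. Its log2 fold change in the authors' deposited table was -1.61 ± 0.13 (SE) with DMSO (adjusted p 3.65e-33), and the ethanol level was 3.06 times the DMSO level. With I-CBP112 the authors' deposited table gave -1.36 ± 0.13 (adjusted p 3.19e-23), and with C646 -0.04 ± 0.13. Igf2os, an RNA from the opposite strand of the Igf2 region, had means of 117 under DMSO, 145 under I-CBP112 and 424 under C646, against 444 with ethanol. In the authors' deposited table it fell by 1.92 ± 0.27 on the log2 scale with DMSO (adjusted p 5.54e-11) and by 1.62 ± 0.26 with I-CBP112 (adjusted p 5.8e-08). The sources used here do not say whether counting used the strand, so reads of Igf2 and Igf2os may be shared.

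Dlk1, the membrane protein (ENSMUSG00000040856.17, chr12:109452823-109463336, plus strand), had means of 5215 under DMSO, 5597 under I-CBP112 and 6636 under C646, against 6989 with ethanol. All 3 treated means were below ethanol, and DMSO was the lowest. The fall of 0.42 ± 0.15 on the log2 scale with DMSO passed (adjusted p 0.0316 in the authors' deposited table), but not when p was adjusted over all genes with counts (adjusted p 0.0709). The authors' deposited table gave Dlk1 -0.32 ± 0.15 with I-CBP112 (adjusted p 0.185) and -0.07 ± 0.15 with C646.

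Igf2r, the receptor that removes IGF2 (ENSMUSG00000023830.13, chr17:12682406-12769664, minus strand), had means of 55308 under DMSO, 72865 under I-CBP112 and 52482 under C646, against 56849 with ethanol. I-CBP112 was the highest and the others lay together. By the authors' deposited table the log2 fold change was -0.04 ± 0.14 under DMSO (adjusted p 0.907), 0.36 ± 0.14 under I-CBP112 (adjusted p 0.0867) and -0.12 ± 0.14 under C646, none past the threshold. Airn, the noncoding RNA that is read across Igf2r from the paternal copy and silences it there, had -0.10 ± 0.17 under DMSO, -0.20 ± 0.17 under I-CBP112 and -0.11 ± 0.17 under C646 in the authors' deposited table, with none called. Per kb, the level of Igf2r was 1.69 times that of Igf2 with DMSO and 1.86 times with I-CBP112, against 0.538 times with C646 and 0.566 times with ethanol.

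Grb10, the adaptor (ENSMUSG00000020176.17, chr11:11930508-12038683, minus strand), had means of 25768 under DMSO, 26742 under I-CBP112 and 31339 under C646, against 32550 with ethanol. DMSO and I-CBP112 were close to each other and both lower than ethanol. Its fall of 0.34 ± 0.11 on the log2 scale with DMSO passed (adjusted p 0.0225 in the authors' deposited table), though not with p adjusted over all genes with counts (adjusted p 0.0508). The authors' deposited table gave -0.28 ± 0.11 with I-CBP112 (adjusted p 0.0967) and -0.05 ± 0.11 with C646.

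H19, the noncoding RNA beside Igf2 (ENSMUSG00000000031.15, chr7:142575529-142578143, minus strand), had means of 87099 under DMSO, 97359 under I-CBP112 and 228723 under C646, against 221183 with ethanol. As for Igf2, DMSO and I-CBP112 were low and C646 was near ethanol. The log2 fold change in the authors' deposited table was -1.34 ± 0.17 under DMSO (adjusted p 2.45e-13), -1.18 ± 0.17 under I-CBP112 (adjusted p 3.61e-10) and 0.05 ± 0.17 under C646. The 2 neighbours fell together, so their ratio moved little: Igf2 had 0.200 counts per H19 count under DMSO, 0.214 under I-CBP112 and 0.227 under C646, against 0.241 with ethanol. The error of these ratios is not known.

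Meg3, the noncoding RNA beside Dlk1 (ENSMUSG00000021268.17, chr12:109541001-109571726, plus strand), had means of 6915 under DMSO, 5973 under I-CBP112 and 6916 under C646, against 7013 with ethanol. I-CBP112 had the lowest mean, and no difference passed. Its log2 fold change in the authors' deposited table was -0.02 ± 0.15 under DMSO (adjusted p 0.958), -0.23 ± 0.15 under I-CBP112 (adjusted p 0.435) and -0.02 ± 0.15 under C646. Rian and Mirg, noncoding RNAs of the same stretch and the same parental copy, were not called either. In the authors' deposited table Rian had -0.12 ± 0.13 under DMSO, -0.22 ± 0.13 under I-CBP112 and -0.01 ± 0.13 under C646. Mirg had -0.09 ± 0.17 under DMSO, -0.28 ± 0.17 under I-CBP112 and -0.07 ± 0.17 under C646 in the authors' deposited table. The ratio of Meg3 to Dlk1 counts was 1.33 under DMSO, 1.07 under I-CBP112 and 1.04 under C646, against 1.00 with ethanol.

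Plagl1, a zinc finger factor known in the mouse to act on other imprinted genes, Igf2 and H19 among them (ENSMUSG00000019817.18, chr10:13060504-13131694, plus strand), had means of 6509 under DMSO, 5119 under I-CBP112 and 8165 under C646, against 9035 with ethanol. I-CBP112 was the lowest group and C646 the nearest to ethanol. Its log2 fold change in the authors' deposited table was -0.47 ± 0.16 under DMSO (adjusted p 0.0218), -0.82 ± 0.16 under I-CBP112 (adjusted p 1.01e-05) and -0.15 ± 0.16 under C646.

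Peg3, the other zinc finger protein (ENSMUSG00000002265.16, chr7:6703892-6730431, minus strand), had means of 12062 under DMSO, 9546 under I-CBP112 and 11918 under C646, against 12647 with ethanol. I-CBP112 had the lowest mean. In the authors' deposited table the log2 fold change was -0.07 ± 0.12 under DMSO (adjusted p 0.794), -0.41 ± 0.12 under I-CBP112 (adjusted p 0.0120) and -0.09 ± 0.12 under C646.

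Mest, the hydrolase (ENSMUSG00000051855.15, chr6:30723547-30748465, plus strand), had means of 16711 under DMSO, 20261 under I-CBP112 and 33346 under C646, against 33900 with ethanol. The DMSO mean was 0.493 times that of ethanol. By the authors' deposited table the log2 fold change was -1.02 ± 0.13 under DMSO (adjusted p 4.34e-13), -0.74 ± 0.13 under I-CBP112 (adjusted p 7.33e-07) and -0.02 ± 0.13 under C646. Copg2, whose gene overlaps the end of Mest on the opposite strand in GENCODE M21, had -0.22 ± 0.13 under DMSO, 0.01 ± 0.13 under I-CBP112 and 0.01 ± 0.13 under C646 in the authors' deposited table, and was not called.

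Ndn, the MAGE family protein known as a growth suppressor of neurons (ENSMUSG00000033585.5, chr7:62346569-62350262, plus strand), had means of 4816 under DMSO, 3981 under I-CBP112 and 4360 under C646, against 4498 with ethanol. No group stood apart. The authors' deposited table gave 0.10 ± 0.19 under DMSO (adjusted p 0.812), -0.18 ± 0.19 under I-CBP112 (adjusted p 0.738) and -0.04 ± 0.19 under C646.

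The treatments were then set against each other, since I-CBP112 and C646 were given at the same 5 µM and DMSO is itself a solvent. The difference of the fold changes was tested with a rebuilt standard error against a normal distribution, with Benjamini-Hochberg adjustment over 14830 genes. Between I-CBP112 and DMSO 0 of the 10 genes differed, against 6.97% of all genes, 2.66% lower and 4.31% higher, though 5 had an unadjusted p below 0.05. The log2 difference, I-CBP112 over DMSO, was 0.26 for Igf2 (95% interval 0.00 to 0.51, adjusted p 0.280), 0.16 for H19 (-0.17 to 0.49, adjusted p 0.730) and 0.28 for Mest (0.02 to 0.53, adjusted p 0.224). It was 0.40 for Igf2r (0.12 to 0.67, adjusted p 0.0583), which passed when the groups were scaled to equal summed counts or centred on the median gene. For Peg3 it was -0.34 (-0.58 to -0.10, adjusted p 0.0672) and for Plagl1 -0.35 (-0.66 to -0.04, adjusted p 0.206). These intervals do not show that the treatments act alike.

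Between C646 and DMSO 3 of the 10 genes differed, all higher with C646, against 15.8% of all genes, 7.86% lower and 7.98% higher. The log2 difference, C646 over DMSO, was 1.57 ± 0.13 (SE) for Igf2 (adjusted p 1.89e-31), 1.39 ± 0.17 for H19 (adjusted p 2.73e-14) and 1.00 ± 0.13 for Mest (adjusted p 1.71e-12). Dlk1, Grb10 and Plagl1, which had fallen with DMSO against ethanol, did not pass here, at adjusted p of 0.0977, 0.0702 and 0.161 from the rebuilt standard errors. Between C646 and I-CBP112, at matched dose and time, 5 of the 10 differed, against 9.8% of all genes, 4.69% lower and 5.11% higher. Higher with C646 were Igf2 by 1.32 ± 0.13, H19 by 1.23 ± 0.17, Mest by 0.72 ± 0.13 and Plagl1 by 0.67 ± 0.16 on the log2 scale (adjusted p 8.44e-22, 5.3e-11, 1.98e-06 and 0.00053 by the rebuilt errors). Igf2r was lower with C646 by the same test, at -0.47 ± 0.14 (95% interval -0.75 to -0.20, adjusted p 0.0106). With the standard error at its upper bound, the calls of Igf2r and Plagl1 were lost. The 3 pairs reuse the same libraries.

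**Figure D3:**
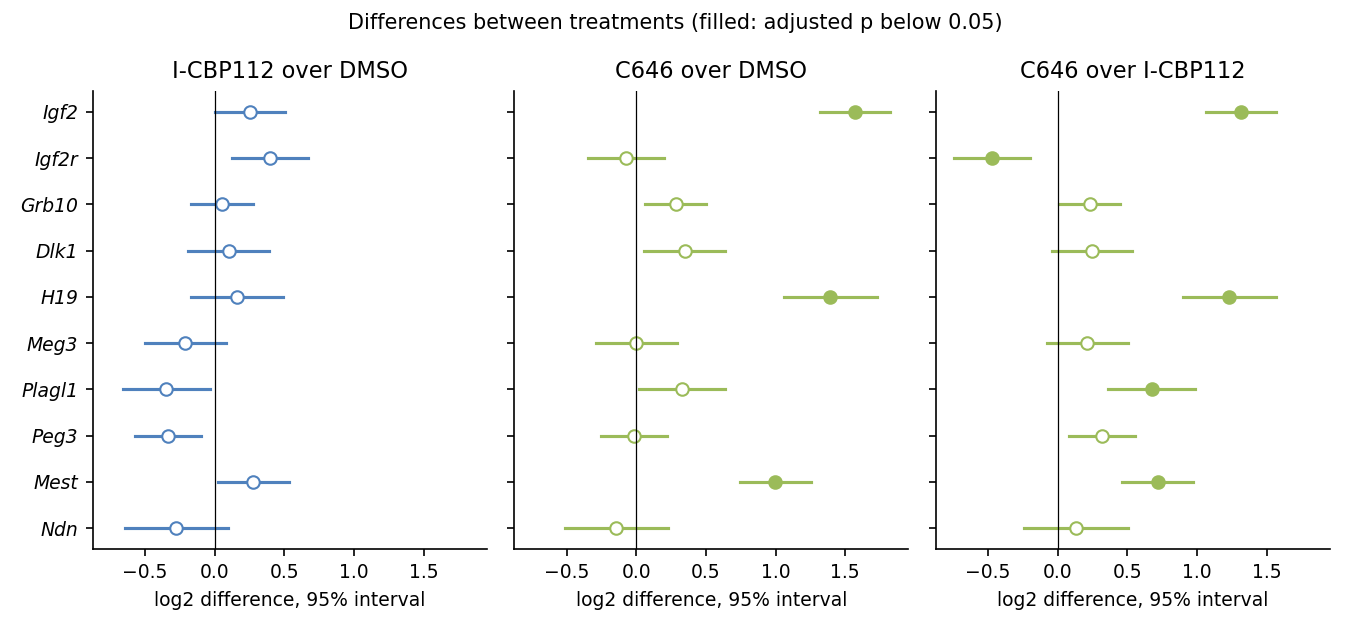
Log2 differences between treatments (horizontal axis) with 95% intervals for I-CBP112 over DMSO, C646 over DMSO and C646 over I-CBP112 from left to right; filled points have an adjusted p below 0.05. Igf2, H19 and Mest are filled and right of 0 in both C646 panels, Igf2r is the 1 filled point left of 0, and every point of the I-CBP112 over DMSO panel is open.

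Stretches of chromosome were laid out around H19, Meg3 and Mest, taking every tested gene that averages at least 50 normalised counts and starts within 500 kb. The width was chosen after values were seen, and the counts are a description. Around H19, 7 of 13 genes fell with DMSO and 5 of 13 with I-CBP112 in the authors' deposited tables, and 0 rose. H19, Igf2 and Igf2os, which overlaps Igf2, are among them; without these 3 it was 4 of 10 with DMSO and 2 of 10 with I-CBP112, beside 7.9% and 5.25% of all genes tested that fell. Some are on no list of imprinted genes used here: Lsp1, a cytoskeletal protein of white blood cells, had a log2 fold change of -2.47 with DMSO (adjusted p 2.47e-23) and -1.85 with I-CBP112 (adjusted p 2.42e-13) in the authors' deposited table. Ifitm10 had -1.19 with DMSO (adjusted p 9.63e-05) and -1.21 with I-CBP112 (adjusted p 0.000116) in the authors' deposited table. Tnnt3, the fast skeletal troponin T, had -2.67 with DMSO (adjusted p 1.69e-07) and -1.08 with I-CBP112 (adjusted p 0.0967) in the authors' deposited table. Ctsd had -0.38 with DMSO (adjusted p 0.0259) and 0.16 with I-CBP112 (adjusted p 0.605) in the authors' deposited table. Cd81 and Tssc4, some way beyond Igf2, were not called, nor was Mrpl23, which lies closest to H19 on its other side, in the authors' deposited tables.

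Around Meg3, 2 of 8 genes fell with DMSO, Dlk1 and Begain (log2 fold change -1.23, adjusted p 0.000353 in the authors' deposited table), and 0 passed with I-CBP112. Without Dlk1 and Meg3 it was 1 of 6 and 0 of 6. Beside these counts and those around Mest, 7.9% of all genes tested fell with DMSO and 5.25% with I-CBP112. Around Mest, 4 of 12 fell with DMSO and the same 4 with I-CBP112 in the authors' deposited tables: Mest, the carboxypeptidase gene Cpa4, the zinc finger gene Klf14 and Klhdc10, so 3 of 11 without Mest itself. Cpa4 and Klf14 are also on the list of other imprinted genes below, and Copg2, between Mest and Klf14, was not called. With C646, 0 genes of the 3 stretches were called in the authors' deposited table.

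**Figure D4:**
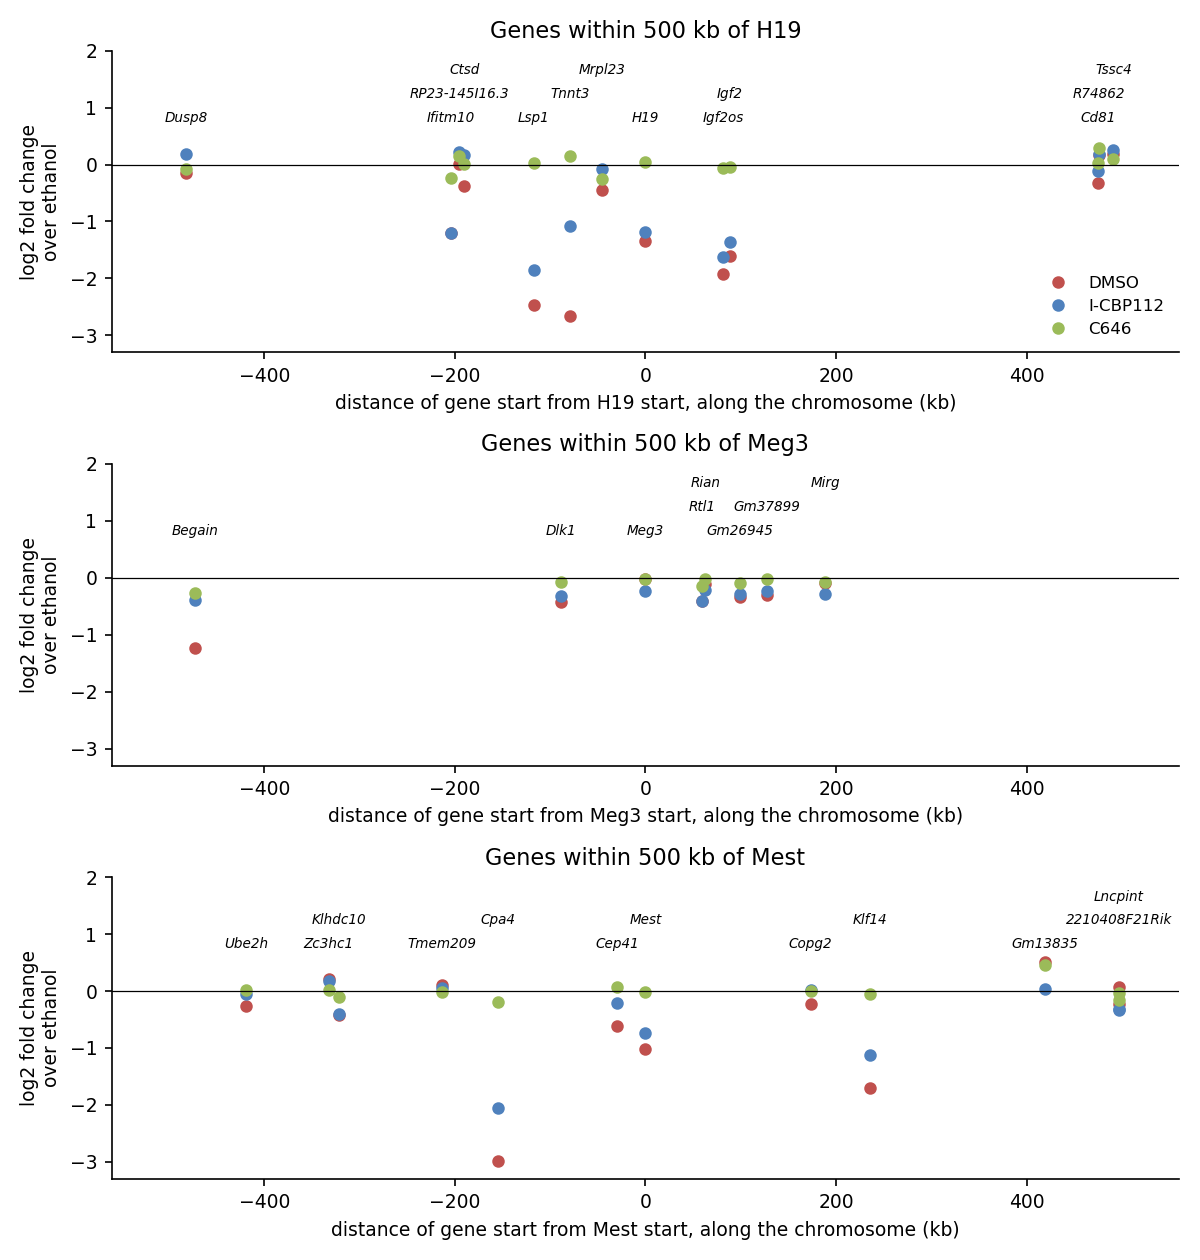
Log2 fold change over ethanol (vertical axis) against the distance of a gene's start from that of H19, Meg3 or Mest (horizontal axis, kb), for DMSO, I-CBP112 and C646, from the authors' deposited tables. In the H19 stretch the low DMSO and I-CBP112 points lie from Ifitm10 to Igf2, with RP23-145I16.3, Ctsd and Mrpl23 closer to 0 among them. In the Meg3 stretch the low DMSO point is Begain. C646 points lie between -0.27 (Begain) and 0.46 (Gm13835 in the Mest stretch).

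Other imprinted genes were taken from a list of 74, of which 72 had a row and 55 were tested. With DMSO 7 rose and 13 fell in the authors' deposited table, beside 8.07% higher and 7.9% lower of all genes tested. The median log2 fold change was -0.10 against 0.03 over all genes. With I-CBP112 6 rose and 7 fell in the authors' deposited table, beside 4.65% higher and 5.25% lower of all genes tested. The median was -0.04 against 0.01. With C646 0 were called and 1 had an unadjusted p below 0.05. So among the other imprinted genes both directions occurred, whereas the called ones of the 10 growth genes were all lower. This difference was not tested, and both lists were chosen with earlier results of these data known. Igf2os, which overlaps Igf2, and Cdkn1c fell with DMSO and with I-CBP112 and are counted among the others. Dcn is on the list of other imprinted genes and also among the fibroblast markers.

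**Figure D5:**
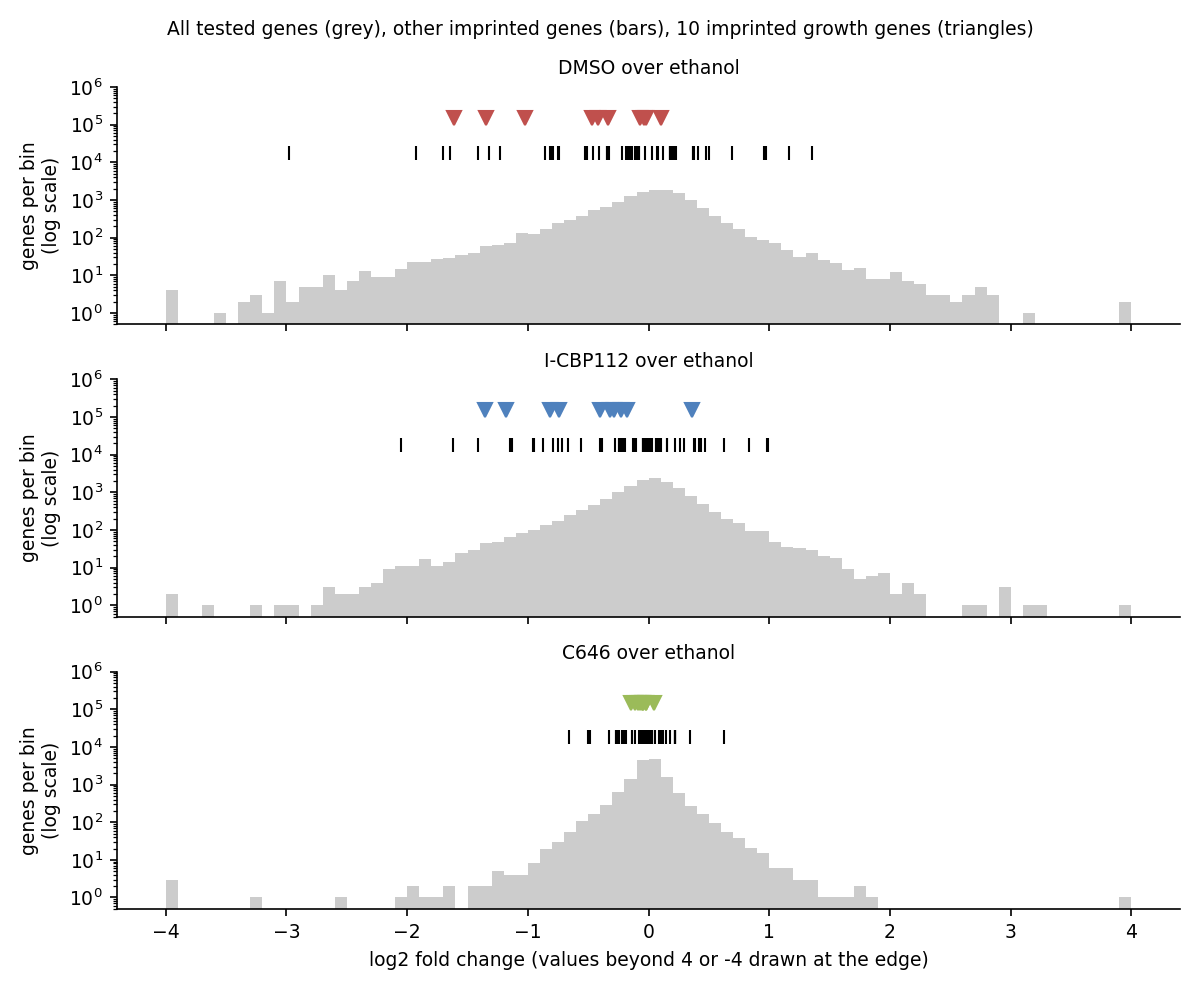
Log2 fold change over ethanol (horizontal axis) of all tested genes as grey histograms (number per bin, log scale), with other imprinted genes as black bars and the 10 imprinted growth genes as triangles, for DMSO, I-CBP112 and C646 from top to bottom. Black bars lie on both sides of 0 with DMSO and I-CBP112, while 9 of 10 triangles lie below 0 in each panel, those of C646 all near 0.

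The highest of the other imprinted genes with DMSO were Cobl, an actin-nucleating protein encoded beside Grb10, at a log2 fold change of 1.16 ± 0.15, the splicing factor gene Snrpn at 0.97 ± 0.20, the ubiquitin ligase gene Herc3 at 0.96 ± 0.26 and the paraoxonase gene Pon2 at 0.69 ± 0.13, by the authors' deposited table. The same table's lowest were Cpa4 at -2.98 ± 0.37, Igf2os (above), Klf14 at -1.70 ± 0.38 and the zinc finger gene Zim1, a neighbour of Peg3, at -1.41 ± 0.46 in the authors' deposited table. With I-CBP112 the highest were Cobl at 0.99 ± 0.15, Herc3 at 0.98 ± 0.26, the glutaminyl cyclase gene Qpct at 0.83 ± 0.17 and Snrpn at 0.62 ± 0.21 in the authors' deposited table. Its lowest were Cpa4 at -2.05 ± 0.35, Igf2os, Klf14 at -1.13 ± 0.38 and the serotonin receptor gene Htr2a at -0.96 ± 0.17, again by the authors' deposited table. With DMSO Grb10 fell while its neighbour Cobl rose. Cdkn1c, a maternally read inhibitor of cell division named here after its values were seen, had means of 6499 under DMSO, 7188 under I-CBP112 and 11069 under C646, against 11430 with ethanol. In the authors' deposited table its log2 fold change was -0.81 ± 0.15 under DMSO (adjusted p 7.89e-07), -0.67 ± 0.15 under I-CBP112 (adjusted p 0.000139) and -0.05 ± 0.15 under C646.

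Of 21 genes that keep or remove imprints, such as the methyltransferase gene Dnmt1 and CTCF, 18 were tested. With DMSO 1 fell, 0 passed with I-CBP112 and 0 with C646 in the authors' deposited tables. At an unadjusted p below 0.05 these were 3, 1 and 0. Of all genes tested, 7.9% fell with DMSO and 5.25% with I-CBP112, so 1 in a list of this size is near that share. The 1 that fell with DMSO was Zfp57, a zinc finger protein that guards imprints in the early mouse embryo. It had means of 110 under DMSO, 225 under I-CBP112 and 277 under C646, against 278 with ethanol. In the authors' deposited table its log2 fold change was -1.33 ± 0.25 with DMSO (adjusted p 2.22e-06) and -0.31 ± 0.24 with I-CBP112 (adjusted p 0.573). The difference between I-CBP112 and DMSO was 1.02 ± 0.25 on the log2 scale (adjusted p 0.00152, rebuilt standard error).

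Of 14 genes that read IGF2 or its RNA (receptors, adaptors and RNA-binding proteins), 11 were tested. Among those, 1 fell with DMSO, 1 with I-CBP112 and 0 passed with C646 in the authors' deposited tables. At an unadjusted p below 0.05 the counts were 3, 1 and 0. Beside them, 7.9% of all genes tested fell with DMSO and 5.25% with I-CBP112. A count of 1 in a list of this size is near those shares. Grb14, an adaptor related to Grb10, had means of 765 under DMSO, 1138 under I-CBP112 and 1202 under C646, against 1250 with ethanol, and a log2 fold change of -0.71 ± 0.15 with DMSO in the authors' deposited table (adjusted p 3.98e-05). Igf2bp1, which binds Igf2 RNA, had means of 738 under DMSO, 666 under I-CBP112 and 858 under C646, against 984 with ethanol, and -0.56 ± 0.19 with I-CBP112 by the authors' deposited table (adjusted p 0.0331).

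The genes most like the 3 of the 10 with the highest mean normalised count were sought among 13308 tested genes that average at least 50 counts, by the root mean square difference of the 3 log2 fold changes in the authors' deposited tables. For H19 they were Crh at 0.047, Pappa at 0.085 and Pcolce2 at 0.089, for Igf2r Eid2b at 0.018, Tigar at 0.031 and Tbc1d24 at 0.032, and for Igf2 Cygb at 0.062, Ednrb at 0.062 and Fgf16 at 0.10. Pappa encodes a protease that frees IGF from its binding proteins; its fold changes were -1.43 under DMSO, -1.14 under I-CBP112 and -0.06 under C646 in the authors' deposited tables. These likenesses rest on 3 values that share the ethanol libraries and are a description.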

How the data were processed

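RNA sequencing covered 8 libraries, 2 for each of 4 treatments, grouped by the treatment in the labels. The submitters' processing notes name kallisto 0.43.1, the build GRCm38.p5 and DESeq2; the DESeq2 version and the strand setting are not given in the sources used here. Per the file headers, the signal in the deposited tables is the mean normalised count over the 8 libraries, and the log2 fold change and its standard error are the authors' own. The statistic in the deposited tables is a score: fold change divided by standard error, within 3.37e-07. Every p-value against ethanol, adjusted by Benjamini-Hochberg or not, is the authors' deposited one, except where an alternative setting named below changed it. Depth per library is unknown; the deposited mean normalised counts sum to 37997801, and the standard errors of the 10 genes run from 0.11 to 0.19, against a median of 0.18 over tested genes.

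No table names its reference, and ethanol is the group without a table. Of 2312 genes with a mean under 0.16, 549 were seen in DMSO alone, 536 in I-CBP112 alone, 622 in C646 alone and 596 in the reference alone, so that the reference is a group other than the 3 named.

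Adjusted p-values exist for 14830 genes with DMSO and with I-CBP112 and for 34250 with C646. Group means were rebuilt from the overall mean and the 3 fold changes. For pairs of treatments a standard error was rebuilt with 1 dispersion per gene. The same formula gave at least 98.9% of the deposited errors within 1%. The dispersion was itself taken from those errors, so this is no independent check of the error of a pair. The code (Python 3.11.15, scipy 1.17.1) was tested on simulated data whose errors were made with the same formula. Alternatives were 2 other scalings, a t distribution, other sets of genes for the adjustment, a threshold of 0.01 and an upper-bound error for pairs. Positions and transcript lengths are those of GENCODE M21, which holds all 10 genes.

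The 10 genes and all lists were chosen with earlier results of these data known. Named were the 10 genes, transcripts that overlap them, up to 4 highest and 4 lowest called genes of the other imprinted list, called genes of the 2 smaller lists and the 3 genes most like each of the 3 of the 10 with the highest mean normalised count.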

Additional observations from a re-analysis of the deposited data

How the results depend on the processing

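Scaling to equal summed counts or centring on the median gene moved log2 fold changes over ethanol by at most 0.0346 and left the counts against ethanol at 6, 5 and 0 of 10 for DMSO, I-CBP112 and C646. Under either, Igf2r differed between I-CBP112 and DMSO (1 of 10, against 0) and Grb10 was added between C646 and DMSO (4, against 3); the log2 difference of Peg3 between C646 and DMSO, uncalled throughout, changed sign to 0.01. A t distribution with 4 degrees of freedom left 0 calls among the 10 genes and 0 among other imprinted genes, against 20 with DMSO and 13 with I-CBP112. At an adjusted p below 0.01, 3 of the 6 remained with DMSO (Igf2, H19 and Mest) and 4 of 5 with I-CBP112 (without Peg3). With p adjusted over all genes with counts 4 remained with DMSO (without Dlk1 and Grb10) and 5 with I-CBP112. With the upper-bound error 3 of 5 remained between C646 and I-CBP112 (without Igf2r and Plagl1) and 3 of 3 between C646 and DMSO. An adjustment of the C646 table over the 14830 genes of the DMSO table, added after seeing the data, left 0 calls. No paired analysis was possible because the tables hold no values of single libraries, and for the same reason no library could be left out in turn. With 2 libraries a group, precision is limited by a median standard error of 0.185 on the log2 scale over the tested genes.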

Other observations

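Of the 74 other imprinted genes, those with means under the lowest tested value included Kcnq1 at a mean normalised count of 2.44, Phlda2 at 8.65, Ascl2 at 5.9, Dio3 at 18.3, Magel2 at 5.42 and Rasgrf1 at 13.1 over all libraries. Zfp57 aside, the genes of the 2 smaller lists that differed between I-CBP112 and DMSO were Grb14, higher with I-CBP112 by 0.57 ± 0.15 on the log2 scale (adjusted p 0.00339, rebuilt standard error), and the chromatin protein gene Arid4a, lower with I-CBP112 at -0.46 (adjusted p 0.0264, by the same test). Both were chosen after their values were seen. Of the 55 other imprinted genes tested, 4 were higher and 1 lower with I-CBP112 than with DMSO, beside 4.31% higher and 2.66% lower of all genes tested. The highest was the chloride channel gene Ano1, at a log2 difference of 1.33 (adjusted p 1.66e-05, rebuilt standard error), also chosen after its value was seen.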
